A study of Homo sapiens with 12 samples.

Results

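On chromosome 15q14-q15, a run of 48 named genes from AVEN to CCNDBP1 was followed through the RNA of ARPE-19, a widely used human cell line derived from the retinal pigment epithelium (RPE). The genes are the lines of the deposited table that carry 1 of these 48 symbols, out of 40591 lines with a symbol. They were picked as neighbours that stood higher in the GSTA4 libraries, so their GSTA4 values are given here as a description, and no test of those values is read. Of the 48 genes, 47 passed the filter on low counts, among 15179 genes that did so. GCHFR, the 48th, held 1 to 9 reads in a library and was not tested. In the GENCODE 29 annotation of GRCh38 the run lies at chr15:33866227-43197176 and spans 9.331 Mb, with 23 genes on the plus strand and 25 on the minus strand.

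Poly(A) RNA was sequenced from 12 libraries in 4 groups of 3. The group labelled WT names no open reading frame (ORF), and the other groups are stable lines that had expressed an ORF for 4 days, labelled GFP (green fluorescent protein), GSTA4 (a glutathione S-transferase that acts on products of lipid peroxidation) or OSK. The labels give no promoter for the ORF and do not state if a group's libraries are separate cultures or repeats of 1 stable line. P-values therefore measure the spread between these libraries, which may be technical, and an ORF cannot be told apart from other differences between the lines.

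Neighbouring genes on a chromosome mostly encode unrelated proteins, and many have a promoter of their own, while some pairs on opposite strands share one. As background, their RNA can move together when a segment of the chromosome is present in more or fewer copies, or when a chromatin domain that holds them changes its state. DNA was not measured here, so gene copies and RNA per copy cannot be told apart in any value below.

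Promoters of the genes are shown first because the members share a position and were not chosen for their promoters. RefSeq promoters (GRCh38.p14, 250 bases before to 50 after a start) were found for 45 of the 48 genes, 58 promoters in all. The 3 printed here are the 250 bases before the start of EIF2AK4, RPUSD2 and STARD9. Among the 12 members with a mean level of at least 1 CPM (the read count scaled to a common library size) and no annotated UTR in that window, these had the highest log2 fold change of GSTA4 against GFP, the one nearest the median and the lowest. Capitals mark matches to the motifs CCAAT and TATAAA on either strand, with overlapping matches joined.
EIF2AK4, plus strand, chr15:39933865-39934114: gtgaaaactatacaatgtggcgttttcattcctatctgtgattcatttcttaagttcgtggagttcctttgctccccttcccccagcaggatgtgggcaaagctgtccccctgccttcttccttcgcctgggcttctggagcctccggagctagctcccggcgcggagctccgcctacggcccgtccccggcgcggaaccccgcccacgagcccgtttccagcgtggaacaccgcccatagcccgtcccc
RPUSD2, plus strand, chr15:40569049-40569298: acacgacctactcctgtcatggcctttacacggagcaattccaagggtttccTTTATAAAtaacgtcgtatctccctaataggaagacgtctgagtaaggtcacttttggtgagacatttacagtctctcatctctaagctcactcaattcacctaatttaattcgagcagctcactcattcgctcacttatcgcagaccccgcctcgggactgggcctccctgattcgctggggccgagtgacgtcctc
STARD9, plus strand, chr15:42575356-42575605: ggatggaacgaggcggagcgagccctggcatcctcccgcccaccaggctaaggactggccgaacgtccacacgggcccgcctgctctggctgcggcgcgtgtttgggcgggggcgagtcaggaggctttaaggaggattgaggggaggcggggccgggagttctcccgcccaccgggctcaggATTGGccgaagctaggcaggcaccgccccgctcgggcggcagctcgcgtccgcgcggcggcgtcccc
These windows differed in their number of CpG pairs and in the motifs found. EIF2AK4 holds 19 CpG pairs and no searched motif, RPUSD2 holds 13 with overlapping TATAAA matches on both strands, and STARD9 holds 29 with 1 CCAAT.

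Over all member promoters, each motif was searched on both strands in the 300-base window. CCAAT was found in 43.1% of the 58 promoters, against 34.6% of all 35116 promoters in the table and 34.5% of those of tested genes. TATAAA was in 5.17%, against 11.5% and 6.31%. The E-box CACGTG was in 3.45%, against 7.26% and 9.16%. CCGGAAG, a core bound by ETS factors, was in 20.7%, against 10.3% and 16.2%. The palindromic motif bound by NRF1 was in 1.72%, against 1.24% and 1.90%. The member promoters had a median of 24.5 CpG pairs and 64.3% GC, where tested genes had 25 and 64.7% and all promoters 14 and 58.7%. Member promoters thus lay close to those of tested genes in CpG and GC content. Members with CCAAT had a median log2 fold change of 0.37 for GSTA4 against GFP (22 genes) and those without it 0.46 (22 genes).

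Levels are given in CPM after TMM scaling between libraries. GFP replicate 1 had the fewest reads, 12630675, and WT replicate 3 the most, 17045454. GFP replicate 1 had reads on 27349 named lines where the other libraries had 19488 to 22073, and named genes that were called against GFP only with it are given below with their values without it. GSTA4 itself stood at 396.4, 420.5 and 430.7 CPM in the group labelled GSTA4, at 17.4 to 22.5 in OSK and at 4.42 to 9.44 in WT and GFP, so it follows its label. All but 2 of the 13 RPE markers exceeded 1 CPM in some library, among them KRT8 (478.3 to 1471 CPM) and MITF (141.5 to 253.7), while RPE65 reached at most 0.640 CPM and TTR 0.272. Summed over the list, RPE markers averaged 1618 CPM in GSTA4 and 1416 in OSK, below the 2520 of WT and 2392 of GFP. KRT8 made up much of that sum (1247 CPM in WT and 678.7 in GSTA4), and LRAT went the other way, at 14.3 CPM in GSTA4, 1.05 in WT and 3.89 in GFP. SERPINF1 stood at 149.7 CPM in GSTA4, 57.0 in WT and 151.8 in GFP. Of 13 markers of photoreceptors, endothelium, leukocytes and fibroblasts, LUM was at 0 in every library and none exceeded 2.72 CPM. Mitochondrial genes took 7.55 to 7.82% of reads in GSTA4, 6.81 to 6.89% in OSK and 5.99 to 6.54% in WT and GFP. The part of the RPE markers and of the mitochondrial share in the values of the 15q14-q15 genes was not tested.

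In the GSTA4 libraries most of the 47 tested genes stood above their GFP level, by amounts that were mostly modest but differed between genes. Their median log2 fold change of GSTA4 against GFP was 0.40, a ratio of 1.32, with quartiles of 0.29 and 0.58, where the median of all tested genes was 0.0082. A fold change was above 0 for 42 genes (51.1% of all tested genes) and below 0 for 5. Against GFP the name "raised in GSTA4" thus does not hold for BMF, SPINT1, EHD4, STARD9 and MEIS2. At an adjusted p under 0.05 (edgeR's quasi-likelihood test, Benjamini-Hochberg over all genes tested) 34 genes were higher, 3 were lower and 10 were not called. Of all tested genes 14.7% were higher and 14.6% lower by the same rule. Since the genes were picked on this comparison, nothing is read from that difference. Without GFP replicate 1, 31 genes were higher and 3 lower, and the median was 0.45.

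Against WT the shift was smaller. The median log2 fold change of GSTA4 against WT was 0.27, a ratio of 1.20, with 24 genes higher, 3 lower and 20 not called. Over all tested genes 19.7% were higher and 19% lower. A fold change against WT was above 0 for 38 genes and below 0 for 9 (7699 and 7469 of the 15179 tested genes). Below 0 were LPCAT4, ZNF770, ZFYVE19, SRP14 and INO80 besides BMF, SPINT1, EHD4 and STARD9, while MEIS2 was above 0. The 2 comparisons share the GSTA4 libraries, and 20 genes were higher in both. All 3 GSTA4 libraries lay above all 3 GFP libraries for 37 genes (22.4% of all tested genes) and above all 3 WT libraries for 30 (25.6%). Each GSTA4 library lay above all 9 others for 21 genes (9.68%).

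**Figure D1:**
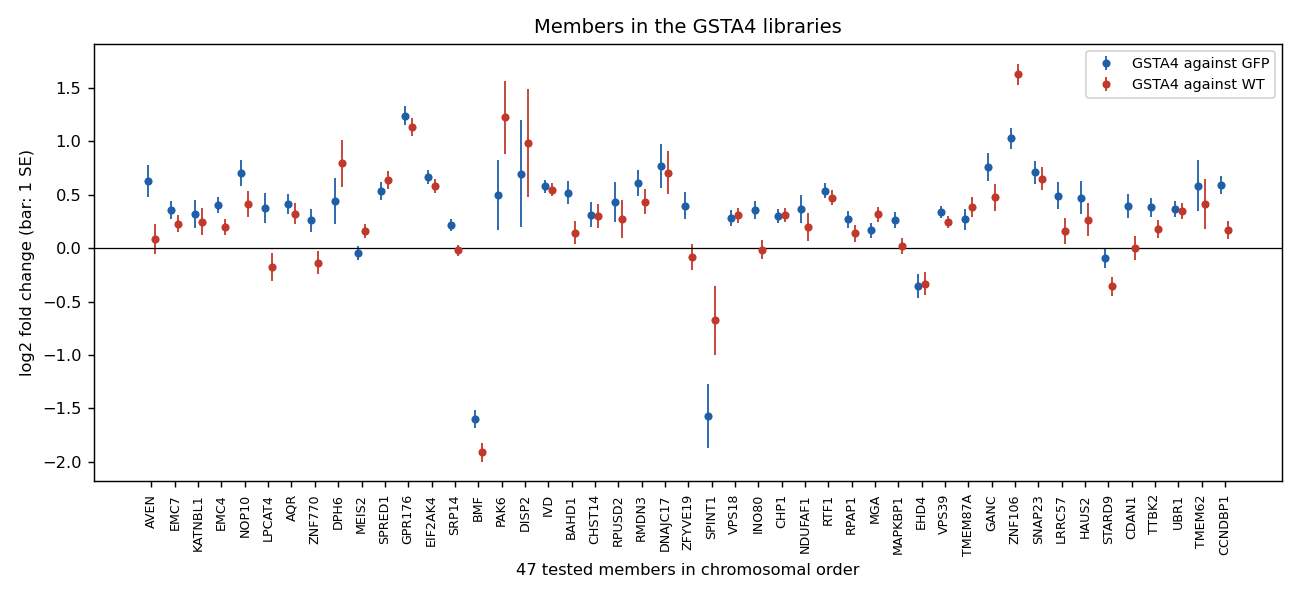
Log2 fold change (vertical axis, bars of 1 SE) of the 47 tested genes in chromosomal order, for GSTA4 against GFP (blue) and GSTA4 against WT (red), from 3 libraries a group. Most blue points lie between 0.2 and 0.8, with GPR176 and ZNF106 above that band and BMF and SPINT1 far below 0.

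How even the shift was is described here by its spread. Of the 47 fold changes against GFP, 31 lay within 0.2 of their median. Between 0.2 and 0.8 lay 39, a band that held 21.8% of all tested genes. The genes were picked on these values, so nothing is read from the difference to that share. Only GPR176 and ZNF106 exceeded 0.8, and MGA alone lay from 0 to 0.2. The standard deviation over the 47 genes was 0.49, with BMF at -1.60 and SPINT1 at -1.57 included. The median standard error of a single gene was 0.097. Standard errors differed between genes, and whether the genes shared 1 ratio was not tested. By strand, the median was 0.49 for the 22 tested genes on the plus strand and 0.37 for the 25 on the minus strand.

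Of 8 genes of the endoplasmic reticulum and Golgi, 7 were called higher against GFP (14.7% of all tested genes) and 5 against WT (19.7%), none lower, with median log2 fold changes of 0.37 and 0.27. The genes were picked on these values, so nothing is read from this count or from those of the roles that follow. EMC4 and EMC7 are subunits of the complex that inserts proteins into the membrane of the endoplasmic reticulum. EMC4 stood at 46.3, 45.8 and 49.0 CPM in WT and 40.4, 43.4 and 38.5 in GFP, with 52.7, 52.2 and 57.0 in GSTA4 and 46.9, 43.2 and 44.2 in OSK. Each GSTA4 library lay above the other 9, and the log2 fold change (± SE, here and below) was 0.40 ± 0.074 against GFP and 0.20 ± 0.073 against WT. EMC7 gave 0.36 ± 0.083 and 0.23 ± 0.082. The call against WT ended when any 1 of 5 libraries was left out for EMC4, and any 1 of 4 for EMC7. SRP14 belongs to the signal recognition particle, which brings ribosomes to that membrane. It stood at 204, 203 and 207 CPM in WT and 168, 183 and 169.8 in GFP, with 205, 193 and 207 in GSTA4 and 155, 156 and 156 in OSK. Its GSTA4 libraries lay above those of GFP but among those of WT, with 0.22 ± 0.055 against GFP and -0.021 ± 0.055 against WT. RMDN3, a tether between mitochondria and the endoplasmic reticulum, gave 0.61 ± 0.12 and 0.43 ± 0.12. The Golgi protein TMEM87A gave 0.27 ± 0.096 and 0.39 ± 0.096, and the dermatan sulphotransferase CHST14 0.32 ± 0.11 and 0.30 ± 0.11. Without GFP replicate 1 neither CHST14 (0.28) nor TMEM87A (0.28) was called against GFP (edgeR adjusted p = 0.128 and 0.0721). Leaving out any 1 of 6 libraries ended the call of CHST14 against GFP, and any 1 of 5 that of TMEM87A. LPCAT4, an acyltransferase of lysophospholipids, gave 0.38 ± 0.14 against GFP and -0.17 ± 0.13 against WT. Its call against GFP ended when any 1 of 7 libraries was left out, and with DESeq2 (DESeq2 adjusted p = 0.0586). TMEM62 gave 0.59 ± 0.24 against GFP with a wide error and was not called.

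Among 7 genes of endosomes, lysosomes and membrane fusion, 6 were called higher against GFP and EHD4 lower. VPS18 and VPS39 are subunits of the HOPS tether, which docks late endosomes to lysosomes. VPS39 stood at 112, 109 and 107 CPM in WT and 100.1, 104 and 102 in GFP, with 126, 133 and 129 in GSTA4 and 111, 101 and 107 in OSK. The GSTA4 libraries were the highest of the 12, with 0.34 ± 0.057 against GFP and 0.24 ± 0.056 against WT. VPS18 gave 0.29 ± 0.075 and 0.31 ± 0.074. CHP1, an EF-hand protein that binds sodium-proton exchangers, stood at 103, 103 and 117 CPM in WT and 107, 109 and 109 in GFP, with 126, 139 and 134 in GSTA4 and 198, 179 and 189 in OSK. Its GSTA4 libraries lay above WT and GFP and below OSK, with 0.30 ± 0.064 against GFP and 0.31 ± 0.064 against WT. SNAP23, a SNARE of the plasma membrane, gave 0.71 ± 0.11 and 0.65 ± 0.10. The glucosidase gene GANC gave 0.76 ± 0.13 and 0.48 ± 0.13. ZFYVE19, which acts in the abscission checkpoint, gave 0.40 ± 0.12 against GFP and -0.083 ± 0.12 against WT. EHD4, an ATPase of endocytic recycling, went the other way and stood at 19.2, 22.2 and 19.5 CPM in WT and 19.8, 20.6 and 21.1 in GFP, with 17.3, 15.4 and 15.4 in GSTA4 and 20.9, 17.2 and 16.7 in OSK. The fit gave -0.35 ± 0.11 against GFP and -0.33 ± 0.11 against WT. The call against GFP ended without GSTA4 replicate 2 (edgeR adjusted p = 0.0703) or GSTA4 replicate 3 (0.0690).

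All 8 genes of RNA metabolism and translation had fold changes above 0 against GFP and against WT, with medians of 0.49 and 0.44, and 6 were called higher in each comparison, where 14.7% and 19.7% of all tested genes were. EIF2AK4 (GCN2) is the kinase that phosphorylates eIF2alpha when amino acids run short. It stood at 59.4, 65.4 and 67.6 CPM in WT and 63.0, 56.7 and 61.9 in GFP, with 95.6, 93.9 and 98.5 in GSTA4 and 58.0, 61.5 and 60.1 in OSK. The 3 GSTA4 libraries lay far above the other 9, which overlapped, and the log2 fold change was 0.66 ± 0.067 against GFP and 0.58 ± 0.067 against WT. RTF1, an elongation factor that works with the PAF1 complex, stood at 56.7, 66.0 and 57.6 CPM in WT and 56.5, 56.8 and 58.6 in GFP, with 82.5, 83.7 and 83.5 in GSTA4 and 56.6, 51.2 and 55.5 in OSK. It showed the same order, with 0.54 ± 0.070 and 0.47 ± 0.069. NOP10 belongs to the H/ACA particles that guide pseudouridylation and gave 0.71 ± 0.12 and 0.41 ± 0.12. The splicing helicase AQR gave 0.41 ± 0.097 and 0.32 ± 0.096, and the J-domain protein DNAJC17 0.77 ± 0.20 and 0.71 ± 0.20. RPAP1, a partner of RNA polymerase II, gave 0.27 ± 0.082 and 0.14 ± 0.081. DPH6, the last enzyme of diphthamide synthesis, gave 0.44 ± 0.22 against GFP, where it was not called, and 0.80 ± 0.22 against WT. The pseudouridine synthase gene RPUSD2 was called in neither.

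The 7 genes of chromatin and DNA binding were more spread, with 4 called higher against GFP and 3 not called. ZNF106, a zinc finger protein, stood at 237, 339 and 352 CPM in WT and 449, 469 and 487 in GFP, with 905, 966 and 994 in GSTA4 and 153, 151 and 157 in OSK. The 4 groups did not overlap and ran in the order OSK, WT, GFP and GSTA4, with 1.03 ± 0.097 against GFP and 1.63 ± 0.099 against WT. MEIS2, a homeobox factor, stood at 87.5, 83.3 and 97.6 CPM in WT and 102, 106 and 103 in GFP, with 97.6, 99.3 and 104 in GSTA4 and 75.8, 72.2 and 74.4 in OSK. GSTA4 overlapped GFP, and the fit gave -0.048 ± 0.064 against GFP and 0.16 ± 0.064 against WT. INO80, the ATPase of a chromatin remodelling complex, gave 0.36 ± 0.088 against GFP and -0.013 ± 0.086 against WT. BAHD1, a heterochromatin protein, gave 0.52 ± 0.11 and 0.14 ± 0.11. CDAN1, the gene of codanin, gave 0.40 ± 0.11 and 0.0011 ± 0.11. MGA, a partner of MAX, was not called against GFP at 0.17 ± 0.074 and was called higher against WT at 0.32 ± 0.074. ZNF770 was called in neither, at 0.26 ± 0.11 and -0.14 ± 0.10.

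Both tested genes of mitochondria and metabolism were called higher against GFP. IVD, isovaleryl-CoA dehydrogenase of leucine breakdown, stood at 77.5, 83.9 and 78.4 CPM in WT and 76.0, 77.6 and 81.2 in GFP, with 113, 119 and 118 in GSTA4 and 68.2, 68.6 and 68.1 in OSK. Its GSTA4 libraries lay well above the other 9, with 0.58 ± 0.059 against GFP and 0.55 ± 0.059 against WT. NDUFAF1, an assembly factor of respiratory complex I, stood at 11.2, 12.997 and 10.7 CPM in WT and 9.66, 10.6 and 10.7 in GFP, with 12.8, 14.1 and 13.1 in GSTA4 and 13.3, 13.9 and 10.8 in OSK. Its GSTA4 libraries overlapped those of WT and OSK, and it gave 0.37 ± 0.13 against GFP and 0.20 ± 0.13 against WT. Leaving out any 1 of the GFP or GSTA4 libraries ended its call against GFP (edgeR adjusted p from 0.0582 without GSTA4 replicate 1 to 0.122 without GFP replicate 1). GCHFR, which encodes a regulator of GTP cyclohydrolase, was near 0 in every library.

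Among 8 genes of cell death and signalling the extremes of the run were found: 4 were called higher against GFP, 2 lower and 2 not called. BMF, a BH3-only promoter of apoptosis, stood at 177, 222 and 212 CPM in WT and 150.3, 161 and 179 in GFP, with 55.3, 52.7 and 54.0 in GSTA4 and 65.0, 61.8 and 54.9 in OSK. Every GSTA4 and OSK library lay below every WT and GFP library, and the log2 fold change of GSTA4 was -1.60 ± 0.086 against GFP and -1.91 ± 0.086 against WT. GPR176, an orphan receptor coupled to G proteins, stood at 21.6, 23.9 and 23.2 CPM in WT and 18.9, 22.3 and 22.8 in GFP, with 50.6, 49.9 and 50.8 in GSTA4 and 19.5, 19.2 and 20.3 in OSK. The GSTA4 libraries lay above 49 CPM and all others below 24, with 1.24 ± 0.086 and 1.14 ± 0.085. SPINT1, a Kunitz inhibitor of serine proteases, stood at 1.62, 2.06 and 1.65 CPM in WT and 3.42, 2.58 and 3.87 in GFP, with 1.21, 1.28 and 0.826 in GSTA4 and 2.92, 3.17 and 4.29 in OSK. Its GSTA4 libraries were the lowest, with -1.57 ± 0.30 against GFP and -0.68 ± 0.32 against WT. MAPKBP1, a scaffold of JNK signalling, stood at 51.9, 50.9 and 52.9 CPM in WT and 46.1, 45.1 and 40.3 in GFP, with 53.7, 53.7 and 50.6 in GSTA4 and 42.3, 42.0 and 38.9 in OSK. GSTA4 overlapped WT, and the values were 0.27 ± 0.073 and 0.021 ± 0.072. The call of MAPKBP1 against GFP ended without GFP replicate 3 (edgeR adjusted p = 0.0651). SPRED1, an inhibitor of RAS signalling to ERK, gave 0.53 ± 0.081 and 0.64 ± 0.081. AVEN, an inhibitor of caspase activation, gave 0.63 ± 0.15 against GFP and 0.087 ± 0.14 against WT. The kinase gene PAK6 and DISP2 had low counts and wide errors, at 0.50 ± 0.33 and 0.70 ± 0.50 against GFP, and neither was called.

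In the group of microtubules, cell cycle and protein turnover 5 of 7 genes were called higher against GFP and 1 of 7 against WT, where STARD9 was called lower. UBR1, a ubiquitin ligase of the N-degron pathway, stood at 41.6, 44.4 and 46.8 CPM in WT and 47.8, 41.1 and 42.0 in GFP, with 54.3, 59.7 and 55.0 in GSTA4 and 47.4, 45.5 and 45.4 in OSK. Its GSTA4 libraries were the highest of the 12, with 0.37 ± 0.077 against GFP and 0.35 ± 0.077 against WT. STARD9, a mitotic kinesin, stood at 60.6, 74.8 and 65.5 CPM in WT and 58.9, 54.4 and 53.8 in GFP, with 57.3, 46.8 and 52.2 in GSTA4 and 40.7, 36.2 and 34.5 in OSK. GSTA4 overlapped GFP, lay below WT and lay above OSK, with -0.093 ± 0.091 against GFP and -0.36 ± 0.089 against WT. CCNDBP1, which binds D-type cyclins, gave 0.59 ± 0.087 against GFP and 0.17 ± 0.085 against WT. TTBK2, a kinase needed for cilium formation, gave 0.38 ± 0.088 and 0.18 ± 0.086. HAUS2 of the augmin complex gave 0.47 ± 0.16 and 0.27 ± 0.15, and LRRC57 0.49 ± 0.13 and 0.16 ± 0.12. Without GFP replicate 1, HAUS2 was not called against GFP (edgeR adjusted p = 0.107). KATNBL1, a katanin subunit, was called in neither at 0.32 ± 0.13 and 0.25 ± 0.13.

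Of the 48 genes, 26 overlap another named gene in the annotation, 18 of them one on the opposite strand and 11 one on the same strand. Whether the counting used strand is not given in the sources used here, so such genes may hold reads of their partner. Pairs of members on opposite strands with starts within 1000 bases were compared. The starts of LRRC57 and HAUS2 lie 8 bases apart, and both had close values against GFP, 0.49 and 0.47. ZNF106 and SNAP23 start 92 bases apart, with 1.03 and 0.71. DNAJC17 and ZFYVE19 overlap at their starts (a distance of -392 bases), with 0.77 and 0.40. TMEM87A and GANC also overlap (a distance of -430 bases), with 0.27 and 0.76. Against WT the values were 0.16 and 0.27 for LRRC57 and HAUS2, and 1.63 and 0.65 for ZNF106 and SNAP23. DNAJC17 and ZFYVE19 gave 0.71 and -0.083 against WT, and TMEM87A and GANC 0.39 and 0.48. Which pair lay closest thus depended on the control group.

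Other genes of the interval were read in the same comparisons. Between AVEN and CCNDBP1 lay 34 other tested genes, of which 12 were higher against GFP (35.3%, against 14.7% of all tested genes) and 2 lower (5.88%, against 14.6%), with a median log2 fold change of 0.32. Against WT their median was 0.27, with 8 higher (23.5%, near the 19.7% of all tested genes) and 3 lower (8.82%, against 19%). Among those with the highest CPM, CCDC9B stood at 309.7 to 359.5 CPM in GFP and 452.9 to 482.2 in GSTA4, or 0.53 ± 0.075 (edgeR adjusted p = 1.81e-05). The long non-coding RNA OIP5-AS1 gave 0.24 ± 0.069 (adjusted p = 0.0125). GOLGA8A gave 0.32 and GOLGA8B 0.20 (edgeR adjusted p = 0.00112 and 0.0608), although reads of these near-identical copies may be shared between them. THBS1, the matrix glycoprotein thrombospondin 1, fell from 536.1 to 666.2 CPM in GFP to 208.9 to 268.2 in GSTA4, or -1.37 ± 0.11 (edgeR adjusted p = 4.58e-09). THBS1 lies in the same stretch as GPR176 and EIF2AK4, whose GSTA4 libraries moved the opposite way.

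**Figure D2:**
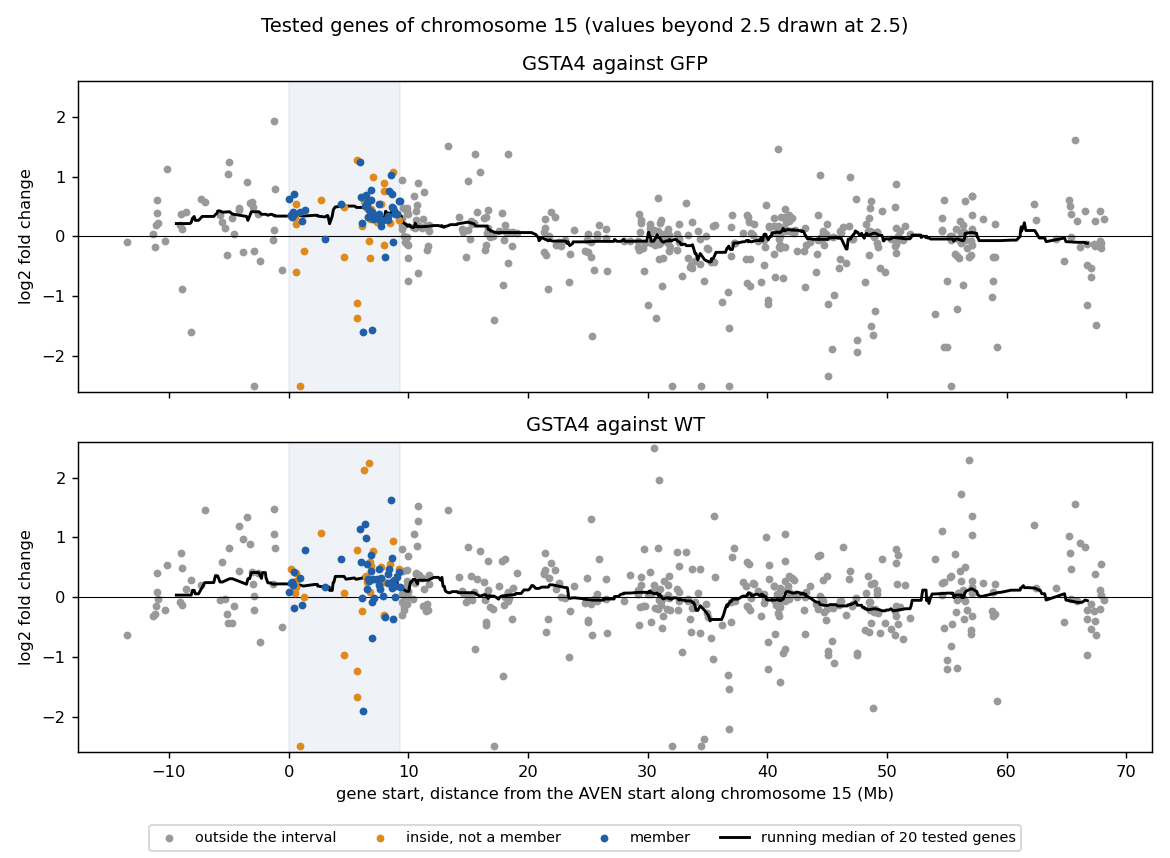
Log2 fold change of each tested gene on chromosome 15 against the distance of its start from that of AVEN in Mb, for GSTA4 against GFP (top) and GSTA4 against WT (bottom), with the interval shaded. In the top panel the running median over 20 tested genes (black line) lies above 0 from the left end of the chromosome through the interval. To the right of the interval it declines to about 0. Against WT, consecutive blocks of 20 genes had medians of 0.035 at the left end and 0.28 from CTDSPL2 to CEP152, right of the interval.

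Along the chromosome, in GSTA4 against GFP, the raised stretch began before AVEN and tapered after CCNDBP1. The 41 tested genes before AVEN had a median of 0.23 for GSTA4 against GFP. Of these 12 were higher (29.3%, against 14.7% of all tested genes) and 2 lower (4.88%, against 14.6%). The 370 after CCNDBP1 had a median of -0.0028, with 42 higher (11.4%) and 53 lower (14.3%). In consecutive blocks of 20 tested genes, the 9 blocks from the first tested gene to DMXL2 had medians from 0.17 to 0.51. The 15 blocks beyond had medians from -0.27 to 0.085. No rule set the cut at DMXL2, so nothing is read from the gap between the 2 ranges. Against WT the same 9 blocks ranged from 0.035 to 0.41 and the 15 others from -0.30 to 0.14, so the ranges overlapped. The block from CTDSPL2 to CEP152, right of the interval, had 0.28 against WT, and that from MGA to RPS3AP47 inside it 0.26. The highest running median of 20 genes was 0.51, between CDIN1 and IVD. Over whole chromosomes, the median of GSTA4 against GFP ran from -0.15 on chromosome 11 to 0.089 on the X chromosome, with 0.067 on chromosome 15.

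At the left edge, RYR3, next to AVEN, gave -0.56 ± 0.32 against GFP (edgeR adjusted p = 0.216), where AVEN just inside gave 0.63. FMN1, a formin, gave 0.79 ± 0.16 (adjusted p = 7.16e-04). SCG5, a neuroendocrine chaperone, stood at 13.3, 13.6 and 14.4 CPM in GFP and at 53.0, 50.7 and 53.5 in GSTA4, with 1.93 ± 0.089 between them (edgeR adjusted p = 1.42e-12). ARHGAP11A and GOLGA8N gave 0.099 and -0.068 (edgeR adjusted p = 0.744 and 0.923). At the right edge, LCMT2 gave 0.12 ± 0.15 (adjusted p = 0.605), where CCNDBP1 just inside gave 0.59. ADAL gave 0.95 ± 0.18 (adjusted p = 4.86e-04) and TP53BP1, a DNA damage response factor, 0.47 ± 0.072 (3.57e-05). ZSCAN29 gave 0.30 and TUBGCP4 0.19 (edgeR adjusted p = 0.0288 and 0.169), and ZSCAN29 was not called without GFP replicate 1 (0.22, edgeR adjusted p = 0.151). Neither edge of the chosen run was thus an edge of the higher values.

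Several of the genes encode 1 part of a complex or family whose other parts lie on other chromosomes or elsewhere on this one. Over 12 such lists, 78 other genes were tested and 14 were higher against GFP (17.9%, against 14.7% of all genes) and 3 lower (3.85%, against 14.6%). Their median log2 fold change was 0.10. Against WT 8 were higher and 8 lower (10.3% each, against 19.7% and 19% of all genes), with a median of 0.047. In 8 of the 12 lists every 15q14-q15 gene lay above all other genes of its list, which follows in part from how the genes were picked. For the 3 other kinases of eIF2alpha the median was -0.0088, where EIF2AK4 gave 0.66. The 3 other H/ACA proteins had a median of 0.14, where NOP10 gave 0.71. For the 6 other subunits of augmin it was -0.065, where HAUS2 gave 0.47, and none was called.

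Called partners were found in 8 of the 12 lists. In the ER membrane protein complex EMC10 gave 0.44 against GFP (edgeR adjusted p = 4.23e-05) but 0.061 against WT (0.505). Among HOPS and CORVET subunits VPS41 gave 0.36 (adjusted p = 4.57e-04) and VPS16 0.22 (0.0486). PAF1 gave 0.37 (edgeR adjusted p = 0.00117), but against WT none of the 4 other tested genes of the PAF1 complex list was called. In the INO80 complex, 5 of 13 other subunits were higher and INO80D lower, with -0.66 for INO80D (edgeR adjusted p = 2.53e-05) and 0.34 for RUVBL2 (0.00205). Complex I assembly factors TMEM126B and TIMMDC1 gave 0.32 and 0.27 (edgeR adjusted p = 0.00560 and 0.00640), and DPH1 of diphthamide synthesis 0.27 (0.0182). Of the 7 other BH3-only genes, which like BMF drive apoptosis, BCL2L11 and HRK were lower, at -0.51 and -0.75 (edgeR adjusted p = 1.16e-04 and 0.00109). The other 5 were not called, and the median of the 7 was -0.065. Against WT 1 of the 7 was called lower and none higher. Of the relatives of SPRED1, SPRY2 gave 0.27 and SPRED2 0.20 (edgeR adjusted p = 0.00385 and 0.0470). Against WT none of the 5 listed relatives of SPRED1 was called higher and 1 was called lower. No other signal recognition particle subunit was called among 5.

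**Figure D3:**
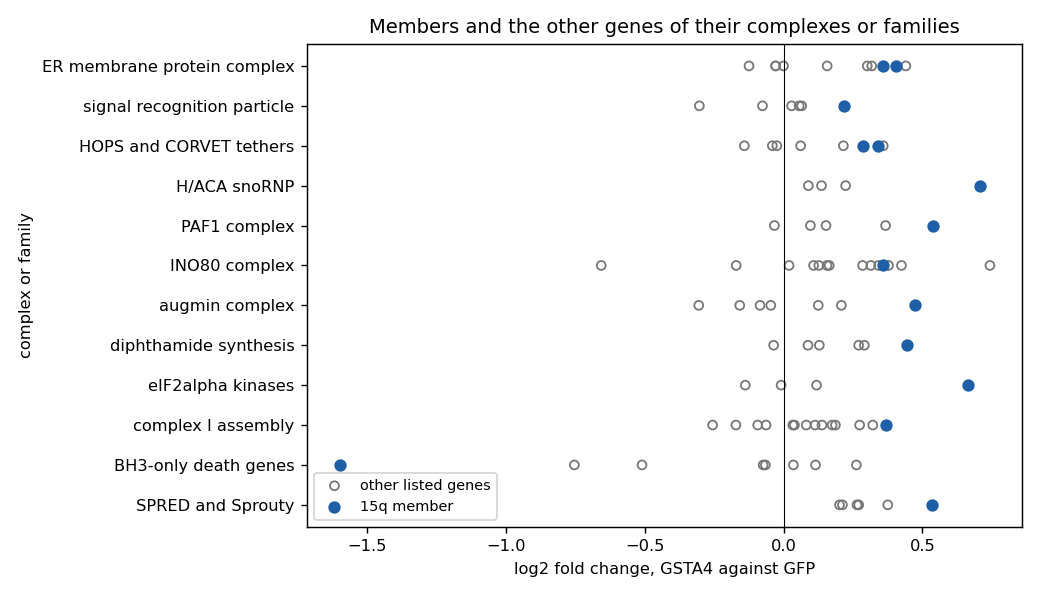
Log2 fold change of GSTA4 against GFP (horizontal axis) for 15q14-q15 genes (filled) and the other tested genes of their complex or family (open), 1 row for each of 12 lists. Filled points lie between 0.2 and 0.8, apart from BMF, and open points are centred near 0.

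The genes were picked for their GSTA4 values, and the comparisons that follow are between the other groups. Their filter, scaling and estimate of the spread still come from the fit of all 12 libraries, GSTA4 included. These comparisons are not free of the pick. WT and GFP were also the controls of GSTA4, and all values were known when the genes were chosen. In OSK against WT the genes as a group stood lower. Their median log2 fold change was -0.22 (all tested genes -0.010), 21 genes were lower (44.7%, against 22.7% of all tested genes) and 6 were higher (12.8%, against 22.7%). The decrease was largest in BMF at -1.75 ± 0.085 (adjusted p = 7.33e-13), CHST14 at -1.48 ± 0.12 (adjusted p = 3.81e-09) and ZNF106 at -1.01 ± 0.100 (adjusted p = 4.41e-08), leaving aside DISP2 with its low counts. CHST14 stood at 31.8, 38.2 and 29.8 CPM in WT and 31.4, 31.4 and 35.9 in GFP, with 40.3, 39.4 and 43.1 in GSTA4 and 9.11, 13.5 and 12.8 in OSK. Every OSK library of CHST14 lay below every other library. STARD9 fell by 0.85 ± 0.092 (adjusted p = 1.51e-07) and SRP14 by 0.39 ± 0.055 (adjusted p = 5.42e-06) on the log2 scale.

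By role, against 22.7% of all tested genes, 7 of 7 genes of chromatin and DNA binding were called lower in OSK than in WT. Besides ZNF106 these were ZNF770 at -0.61, CDAN1 at -0.51, INO80 at -0.50, MGA at -0.40, BAHD1 at -0.38 and MEIS2 at -0.27. Each of these calls held with any 1 library left out. The 8 genes of the endoplasmic reticulum and Golgi showed 4 higher (50%, against 22.7% of all tested genes) and 2 lower (25%, near the 22.7% of all). Those of RNA metabolism and translation showed 2 of 8 lower (25%, also near that share) and 6 not called. The roles were drawn up with earlier results of these data known, and whether they differ was not tested. The genes higher in OSK were CHP1 at 0.82 ± 0.064 (adjusted p = 1.23e-09), EMC7 at 0.44 ± 0.081 (adjusted p = 1.29e-04), LPCAT4 at 0.55 ± 0.13 (adjusted p = 0.00144), SPINT1, TMEM87A and RMDN3. LPCAT4 stood at 16.1, 12.9 and 13.98 CPM in WT and 10.7, 8.89 and 9.71 in GFP, with 14.4, 11.6 and 11.97 in GSTA4 and 24.2, 19.4 and 19.2 in OSK. Its OSK libraries were the highest and its GFP libraries the lowest of the 12. SPINT1 at 0.96 ± 0.28 (adjusted p = 0.00768) lost its call without OSK replicate 3 (edgeR adjusted p = 0.0549). TMEM87A at 0.26 (adjusted p = 0.0314) lost its call without WT replicate 1 or 3 or OSK replicate 1 or 3, with adjusted p up to 0.148.

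In GFP against WT fewer genes were called. The median was -0.13 (all tested genes 0.0098), with 12 genes lower (25.5%, against 11.2%) and 3 higher (6.38%, against 11%). Among the genes lower in GFP, the lowest adjusted p belonged to CCNDBP1 at -0.42 ± 0.087 (adjusted p = 0.00191), SRP14 at -0.24 ± 0.055 (adjusted p = 0.00413), INO80 at -0.37 ± 0.088 (adjusted p = 0.00495), LPCAT4 at -0.55 ± 0.14 (adjusted p = 0.00664) and ZFYVE19 at -0.48 ± 0.12 (adjusted p = 0.00763). The genes higher in GFP were ZNF106 at 0.60 ± 0.098 (adjusted p = 1.94e-04), SPINT1 at 0.90 ± 0.28 (adjusted p = 0.0270) and MEIS2 at 0.21 ± 0.064 (adjusted p = 0.0220). SPINT1 lost its call without WT replicate 1 or 3 or GFP replicate 1 or 3 (edgeR adjusted p up to 0.105), and MEIS2 without WT replicate 1 or 2 or GFP replicate 2 (up to 0.120). Without GFP replicate 3, 8 genes were lower and 2 higher. Without GFP replicate 1, 12 were lower and 2 higher. The GFP libraries enter every value of GSTA4 against GFP.

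In OSK against GFP the share of lower genes was near that of all genes, and fewer were higher. The median was -0.075 (all tested genes -0.019), 13 genes were lower (27.7%, against 22.8%) and 5 higher (10.6%, against 23.1%). ZNF106 gave -1.61 ± 0.10 (adjusted p = 4.80e-11), BMF -1.43 ± 0.085 (adjusted p = 2.20e-11) and CHST14 -1.47 ± 0.13 (adjusted p = 5.44e-09). MGA and MEIS2 were lower, at -0.55 (adjusted p = 4.49e-06) and -0.48 (adjusted p = 3.22e-06). LPCAT4 was higher by 1.10 ± 0.13 (adjusted p = 9.79e-07), CHP1 by 0.80 ± 0.064 (adjusted p = 1.95e-09) and EMC7 by 0.57 ± 0.082 (adjusted p = 8.20e-06). CCNDBP1 at 0.39 and RMDN3 at 0.49 were also higher (adjusted p = 9.48e-04 and adjusted p = 0.00199). Scaling by library size alone moved the calls over all genes from 23.1% higher and 22.8% lower to 18.2% and 27.5%, and left the members at 5 higher and 13 lower.

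**Figure D4:**
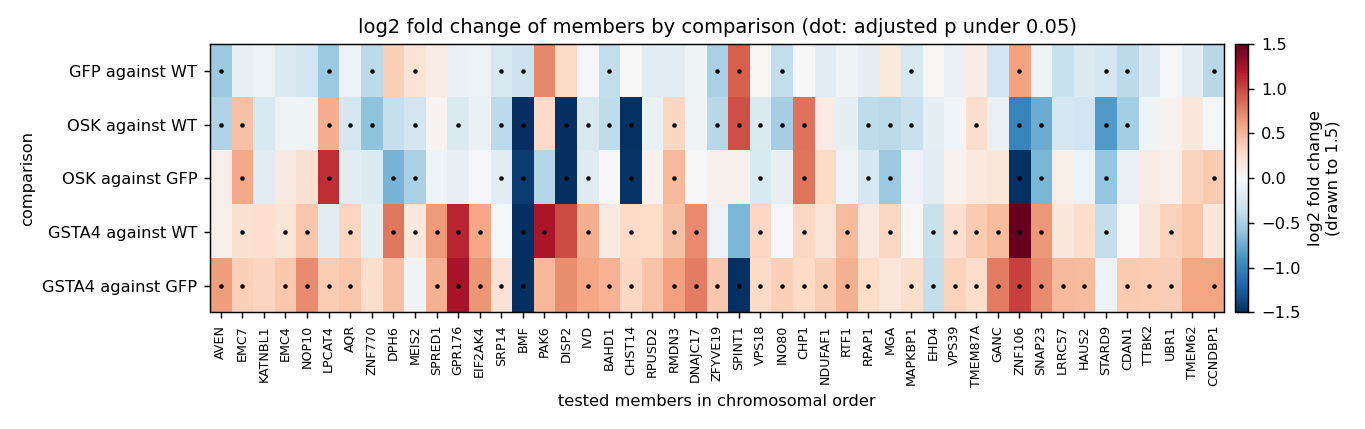
Log2 fold change (colour, drawn to 1.5) of the 47 tested genes in chromosomal order for 5 comparisons, with a dot where the adjusted p was under 0.05. The rows of GSTA4 are mostly red, with BMF, SPINT1, EHD4 and STARD9 blue, and the row of OSK against WT is mostly blue, with SPINT1, CHP1, LPCAT4, EMC7, RMDN3 and TMEM87A called higher.

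Medians over the genes were also taken library by library. The median over the 47 genes of the log2 difference in CPM from the WT mean was -0.044, 0.025 and 0.014 in the WT libraries and -0.15, -0.11 and -0.096 in GFP. It was 0.22, 0.26 and 0.28 in GSTA4 and -0.20, -0.22 and -0.26 in OSK. For the 47 genes no group overlapped another, and the spread within groups was 0.030 (pooled SD). The genes were picked as higher in these same GSTA4 libraries, and the WT libraries are centred on their own mean. Nothing is therefore read from the place of GSTA4 above the other groups. The 34 other tested genes of the interval gave 0.18, 0.36 and 0.28 in GSTA4 and -0.41, -0.41 and -0.44 in OSK. Their GFP values of -0.034, -0.16 and -0.029 overlapped those of WT, -0.055, 0.092 and 0.010. Over all tested genes the same median stayed between -0.011 and 0.014 in every library.

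**Figure D5:**
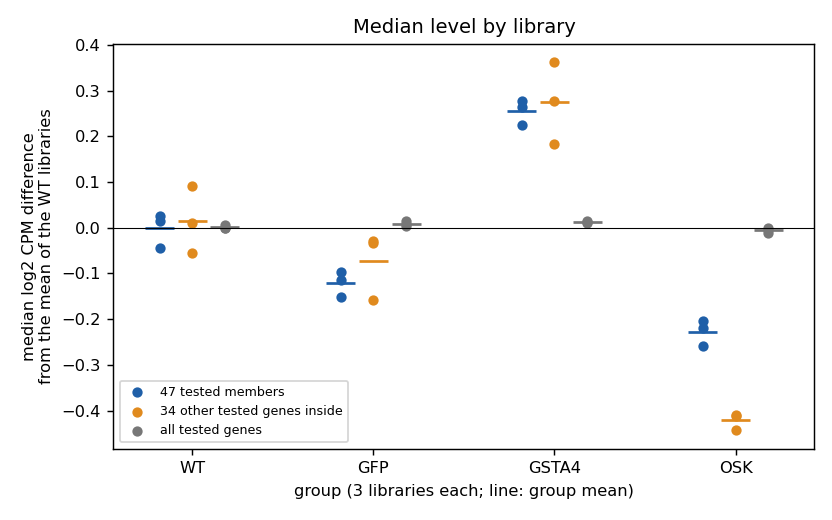
Median log2 difference in CPM from the mean of the WT libraries (vertical axis) for the 47 tested genes, the 34 other tested genes of the interval and all tested genes, 1 point a library and a line at the mean of each group of 3. The GSTA4 points lie at 0.18 to 0.36 and the OSK points at -0.44 to -0.20 for both sets of the interval, while all tested genes stay near 0.

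Blocks along the chromosome were read in the same way, with the same cut at DMXL2, for the other groups. For OSK against WT, 8 of the 9 blocks of 20 genes at the left of the chromosome had a median below 0, down to -0.53 in the block from SPRED1 to CHST14, and the block from SHC4 to DMXL2 had 0.24. Of the 15 blocks beyond, 8 were below 0 and 7 above, from -0.30 to 0.21. For GFP against WT, 7 of the 9 blocks were below 0, from -0.23 to 0.11, and 4 of the 15 beyond. The 34 other tested genes inside the interval had a median of -0.43 in OSK against WT, with 11 lower (32.4%) and 6 higher (17.6%). Those before AVEN had -0.23, with 12 lower (29.3%) and 7 higher (17.1%). Of all tested genes 22.7% were lower and 22.7% higher. The comparisons of OSK, GFP and GSTA4 with WT share the WT libraries, so their values are set side by side and no relation between them is drawn.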

How the data were processed

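Read counts per gene of 12 poly(A) libraries (4 groups of 3) were deposited by the authors as whole numbers, not normalized, with a gene symbol and a gene type for each line. Per the labels' protocols, RNA was taken with TRIzol and libraries made with a NEBNext Ultra II kit. Per the submitters' processing notes, STAR 2.7.1a and featureCounts 1.6.2 were used and the builds GRCh38 (hg38) and GRCm38 (mm10) are named, with no roles. The annotation release and strand setting are not given in the sources used here. Lines without a symbol (20014 of 60605, 0.485 to 0.822% of reads) were left out. Total counts per library ran from 12630675 to 17045454.

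Genes were placed by symbol with GENCODE 29 on GRCh38: 36817 lines by current symbol, 2405 through other names and 1369 not at all. The counts were tested with edgeR 4.0.16 (limma 3.58.1, R 4.3.3): filterByExpr by group, TMM scaling, 1 fit of all 12 libraries, quasi-likelihood test, two-sided p adjusted by Benjamini-Hochberg over 15179 genes, threshold 0.05. The fit had 8 residual and 12 prior degrees of freedom and a common biological coefficient of variation of 7.91%. Standard errors (SE) are those of the log2 fold change, worked back from the test as its absolute value over the square root of the quasi-likelihood F. The fit was tested on simulated data. Tables and figures used Python 3.11.15, pandas 2.3.3 and matplotlib 3.10.9.

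The 48 genes, their roles and all lists were chosen with earlier results of these data known. Named genes follow a rule: all members by role, with values in every library for the 2 of each role with the highest mean CPM and for the extremes, up to 5 a direction in the comparisons without GSTA4, 5 neighbours on either side, 6 other genes inside, up to 2 partners a list and opposite-strand pairs within 1000 bases. CHST14 and LPCAT4 are also shown by library, chosen after their values were seen. Some genes that the rule or the marker lists name are not reported here. Alternatives were RLE scaling, library size alone, 2 other filters, DESeq2 1.42.0, only the 6 libraries compared, a replicate block and leaving out each library. Same-numbered libraries correlated at -0.019 to 0.15 in their deviations, so the numbers were not taken to pair libraries.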

Additional observations from a re-analysis of the deposited data

How the results depend on the processing

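No gene of the run changed direction under any alternative tried, among those that passed the threshold. Of the called genes, those that kept their call with any 1 library left out numbered 27 of 37 for GSTA4 against GFP, 22 of 27 for GSTA4 against WT, 19 of 27 for OSK against WT, 12 of 18 for OSK against GFP, 7 of 15 for GFP against WT and 33 of 39 for OSK against GSTA4. For GSTA4 against GFP the 10 that did not were CDAN1, CHST14, EHD4, HAUS2, LPCAT4, MAPKBP1, NDUFAF1, RPAP1, TMEM87A and ZFYVE19. For OSK against WT they were AQR, AVEN, DISP2, GPR176, RMDN3, SPINT1, TMEM87A and VPS18.

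Leaving out each library in turn, the median log2 fold change of the 47 genes ran from 0.36 to 0.45 for GSTA4 against GFP, from 0.23 to 0.28 for GSTA4 against WT, from -0.24 to -0.19 for OSK against WT, from -0.10 to -0.048 for OSK against GFP and from -0.51 to -0.43 for OSK against GSTA4, where it was -0.49 with all libraries. The number called ran from 30 to 39 for GSTA4 against GFP and from 10 to 15 for GFP against WT. Scaling by library size alone gave medians of -0.15 for OSK against GFP, -0.29 for OSK against WT and -0.55 for OSK against GSTA4, and moved the median of all genes to -0.091, -0.078 and -0.077. DESeq2 called 31 higher and 3 lower for GSTA4 against GFP, and 6 higher and 20 lower for OSK against WT. With only the 6 libraries compared, GFP against WT kept 10 calls. A window of 40 genes lowered the highest running median on chromosome 15 to 0.44. With the replicate number as a block, the pairing not being established, 35 genes were higher and 3 lower for GSTA4 against GFP, with TMEM62 added (edgeR adjusted p = 0.0238), and no other comparison changed its counts of the 47 genes. Members at low counts (PAK6, DISP2, DPH6 and GCHFR) are limited by depth.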
